A study of Mus musculus with 6 samples.

Results

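The 100 genes described here are those whose deposited gene count and deposited FPKM (fragments relative to transcript length and library size) moved furthest apart between the libraries labelled WT and those labelled Ptpro-KO. A count divided by the FPKM of the same gene and library follows the length by which the quantification divided, here called the assigned length. Of 20435 rows in the gene tables, 20431 carried a symbol listed once, and 11974 of these had an FPKM above 1 in all 6 libraries and were eligible. Members were chosen by these ratios. They had all 3 ratios of one label above all 3 of the other, and were the first 100 by the absolute log2 of the mean ratio in the libraries labelled Ptpro-KO over that in the libraries labelled WT. The ratio was higher under the Ptpro-KO label in 20 members, called longer below, and lower in 80, called shorter. These names refer to the ratio alone and do not say that a longer or shorter transcript was made, since 13 members had 1 listed transcript. The ratios chose the genes, so they are given below as a description with no test.

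Most mammalian genes make several transcripts from 1 locus, by alternative promoters, by alternative splicing and by the use of different polyadenylation sites, which set the length of the 3′ untranslated region. A program that estimates FPKM has to divide by a length, and where isoforms of unequal length share reads that length depends on how the reads are split among them. Many such programs also use an effective length, which can include corrections for the fragment size and for the base composition of each library.

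The tumours were oesophageal squamous cell carcinomas of C57BL/6 mice that had drunk the carcinogen 4NQO, at a labelled 100 mg/mL, from 6 weeks of age for 16 weeks, both genotypes alike. The design text gives 34 weeks of age, the sample labels week 6, and animals were killed 12 weeks after the carcinogen ended or earlier on weight loss. There were 3 mice labelled wild type and 3 labelled Ptpro-/-, and the labels name no promoter or tissue-specific deletion. Each library was total RNA of tumour tissue. The p-values below measure the spread between these 3 and 3 samples. Libraries held 25745240 to 39827467 reads on annotated transcripts.

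Ptpro, the receptor-type tyrosine phosphatase gene of the genotype, went against its label. Its level in CPM (reads relative to library size, scaled by TMM) was 5.05, 0.359 and 2.39 under the WT label and 30.3, 42.8 and 50.6 under the Ptpro-KO label, with a log2 fold change of 3.97 (edgeR adjusted p = 0.0617). Directions are therefore given by label. Tissue makeup moved with the labels as well. The summed level of 16 squamous epithelium markers was 66154 to 70624 CPM against 24495 to 30195, that of 10 simple and glandular markers 390 to 456 against 1470 to 2972, and that of 10 fibroblast and matrix markers 662 to 2149 against 3985 to 6564. The 15 striated muscle markers spanned 75.4 to 38213 and 234 to 42034 CPM, and 8 gastric markers 0.170 to 0.350 and 4.87 to 17913. The part of tissue makeup in the ratios was not tested, and in bulk RNA fewer cells of a type and less RNA per cell cannot be told apart.

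Because low GC content was more frequent among members than among all eligible genes, as given below, the middle 90 bases of the coding sequence are shown for members with 1 listed transcript, in which no reads can move between isoforms. The sequences are those of GENCODE M21 on GRCm38, 5′ to 3′, with G and C in capitals. Jrkl, Pof1b and Zfp654 are the first such members on the shorter side that could be shown, and Lor and Lce1m those on the longer side.
Jrkl: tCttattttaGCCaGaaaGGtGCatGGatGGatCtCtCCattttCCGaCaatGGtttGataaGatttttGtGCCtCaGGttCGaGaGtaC
Pof1b: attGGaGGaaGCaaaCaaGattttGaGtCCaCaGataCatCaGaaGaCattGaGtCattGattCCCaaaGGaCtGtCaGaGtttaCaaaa
Zfp654: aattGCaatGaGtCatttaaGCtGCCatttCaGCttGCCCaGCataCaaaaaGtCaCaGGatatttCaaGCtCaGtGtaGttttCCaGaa
Lor: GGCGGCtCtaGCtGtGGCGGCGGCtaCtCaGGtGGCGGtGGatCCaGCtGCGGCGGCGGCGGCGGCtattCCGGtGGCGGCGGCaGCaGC
Lce1m: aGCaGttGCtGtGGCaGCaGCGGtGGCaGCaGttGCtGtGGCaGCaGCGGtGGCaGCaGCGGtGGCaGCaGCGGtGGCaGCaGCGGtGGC
The 3 shorter members held 41.1%, 37.8% and 38.9% G and C in these windows and 34.9%, 36.1% and 34.4% over the whole transcript. Lor, which encodes the cornified envelope protein loricrin, held 75.6% in the window and 68.3% over the transcript. Lce1m, a late cornified envelope gene, held 70.0% and 57.2%.

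Across the 11974 eligible genes the ratios of the 2 labels did not overlap in 5277, which is 44.1% of them. Under the Ptpro-KO label the ratio was higher in 937 genes (7.83%) and lower in 4340 (36.2%). With every ratio divided by the median ratio of its library, which ran from 72.2 to 73.3, the split was 2739 higher and 3332 lower. The excess of shorter genes was thus smaller after this scaling but remained. The 100 genes chosen after it were 31 longer and 69 shorter, and 88 of them were members. Separation of the labels was thus common. Members were chosen by the size of the shift, so a larger shift in them follows from the choice. Their median absolute log2 shift was 0.12, against 0.028 over all eligible genes. A shift of 0.20 is a rise of about 14.9% in assigned length, or in a shorter gene a smaller percent fall. Among members 18 reached a shift of 0.20, 5 longer and 13 shorter, and 7 reached 0.30. Over all eligible genes, members included and with or without overlap of the labels, 25 and 11 did so. At the edge of the list the shifts were close together, at −0.1003 for Casp12 and −0.1003 for Ttc14 just inside and −0.1001 for N4bp2l2 and −0.1001 for Gnpnat1 just outside.

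The member with the largest shift was Gm14005, a long intergenic non-coding RNA on the minus strand of chr2:128178319-128502765 (GRCm38). Its count per FPKM was 41.0, 46.8 and 46.4 under WT and 28.4, 27.0 and 32.6 under Ptpro-KO, a log2 ratio of −0.61. The groups were separated by a wide gap. Its protein-coding neighbour Bcl2l11, on the plus strand of chr2:128126038-128162547, was also among the members. Bcl2l11 encodes the pro-apoptotic BH3-only protein Bim, which is known for its splice isoforms. Ratios of Bcl2l11 were 111, 120 and 114 against 90.1, 95.1 and 98.3, a log2 ratio of −0.28.

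Zinc finger genes made up 5 of the members by name, which is 5% against 2.64% of eligible genes. Gm14391 and Gm14326, given next, carry gene model names and are not in this count. The gene model Gm14391 on chromosome 2 had ratios of 54.8, 47.7 and 55.1 against 38.3, 39.7 and 44.7 (log2 −0.36). Gm14326, on the same chromosome, had 53.7, 53.7 and 55.5 against 45.6, 46.2 and 46.5 (log2 −0.24), with little spread inside either label. Zkscan8, a zinc finger gene with a SCAN domain, had 232, 236 and 249 against 192, 206 and 182 (log2 −0.31). No ratio of one label fell within the range of the other in any of these genes, as the choice of members requires.

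Other genes with lower ratios in the libraries labelled Ptpro-KO included 2010204K13Rik (log2 −0.36), the protein-coding 1500011B03Rik (−0.31), 1810032O08Rik (−0.24) and Airn (−0.22), the non-coding RNA that silences the imprinted gene Igf2r in cis. Ms4a6c, a gene of the membrane-spanning family that macrophages express, had −0.22. The 10 macrophage markers summed to 88.6 to 357 CPM under WT and 706 to 1411 under Ptpro-KO. Of 9 markers tested 0 passed by edgeR. Their part in the ratio of Ms4a6c was not tested. Kalrn had −0.21, Kcne3, an accessory subunit of potassium channels, −0.21, and Rbl1, the pocket protein p107, −0.20. In Kalrn 1 library lay apart from the others of its label, with ratios of 351, 352 and 409 against 425, 434 and 431 under WT.

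On the longer side, 1300002E11Rik, a long intergenic non-coding RNA, had ratios of 22.4, 23.6 and 27.5 under WT and 30.3, 29.4 and 33.8 under Ptpro-KO (log2 0.35). Ccl27a, a chemokine made by keratinocytes that attracts T cells to skin, had 10.2, 9.66 and 9.47 against 12.3, 12.97 and 11.6 (log2 0.33). Pnkd, the gene mutated in a paroxysmal movement disorder, had 14.95, 16.8 and 15.7 against 20.1, 18.004 and 19.7 (log2 0.28). Brcc3 encodes a deubiquitinase of the BRCA1-A complex. Its log2 ratio of 0.22 rested largely on 1 library, with 46.3, 44.4 and 48.0 under WT and 50.04, 61.4 and 50.3 under Ptpro-KO, and was 0.12 without Ptpro-KO replicate 2. In Ms4a6c the log2 ratio without WT replicate 2 was −0.12, again well below its value in all libraries.

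**Figure D1:**
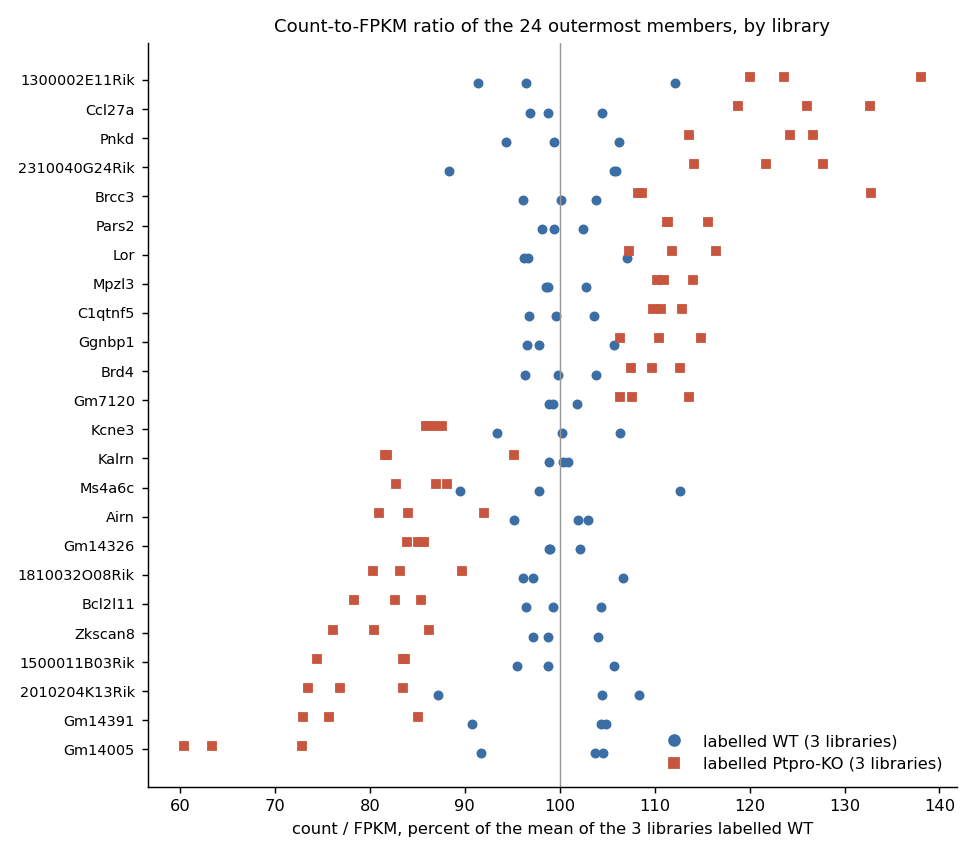
Count divided by FPKM for the 12 members with the highest and the 12 with the lowest log2 ratio, each library as a percent of the mean of the 3 libraries labelled WT (circles, labelled WT; squares, labelled Ptpro-KO). The circles and squares of each gene do not overlap, which the choice of members requires, and Gm14005 lies furthest out, at log2 −0.61.

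The remaining members had smaller shifts, and most of them were ordinary protein-coding genes. Of 97 members found in the annotation 89 (91.8%) were protein coding, against 96.6% of eligible genes. Members had a median of 5 listed transcripts against 3 over all eligible genes, and their leading transcript took a median of 90.4% of the reads against 98.2%. Only 13 members had 1 listed transcript, 13.7% of the 95 found in the per-sample files, against 29.1%. An exon of another gene overlapped on the opposite strand in 28.9% of members and 32.0% of eligible genes, and on the same strand in 13.4% and 8.87%. The sources used here do not say whether counting used strand, so reads of such pairs may not be separable.

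Over all eligible genes the shift followed the GC content of the transcript, and among the members alone the correlation was weaker. Over 11618 eligible genes with a sequence for the transcript that took most reads, the log2 ratio and the GC content had a Spearman correlation of 0.87 and a Pearson r of 0.80. This is a correlation across genes that share the same 6 libraries, and genes are not replicates. In the 3386 genes with 1 listed transcript the Spearman correlation was 0.89, and in the 8232 with several it was 0.87. Within the 94 members with a sequence the Spearman correlation was 0.11 and the Pearson r 0.34. The Spearman correlation was −0.43 in the 75 shorter and −0.021 in the 19 longer ones. The choice of members by size of shift left out small shifts. The values within members are therefore not directly comparable with those over all eligible genes. The cause of the relation was not tested. Coding GC alone gave 0.77, GC of the 3′ untranslated region 0.70 and log2 transcript length −0.21. The edgeR log2 fold change of expression had a Spearman correlation of 0.065 with GC content.

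Members on the 2 sides differed in base composition. The 75 shorter members with a sequence had a median GC content of 40.1%, the 19 longer ones 54.0% and all eligible genes 50.4%. Among members 53 of 94 had a GC content under 42%, which is 56.4% against 9.92% of eligible genes. The lowest GC decile of eligible genes, from 31.8% to 42.02%, held 53 members, of which 51 were shorter, and in it the labels did not overlap for 88.1% of genes. The highest decile held 5 members, of which 4 were longer. The 3′ untranslated region of the leading transcript had a median of 1613 bases in shorter members, 564.5 in longer ones and 918 over all eligible genes.

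**Figure D2:**
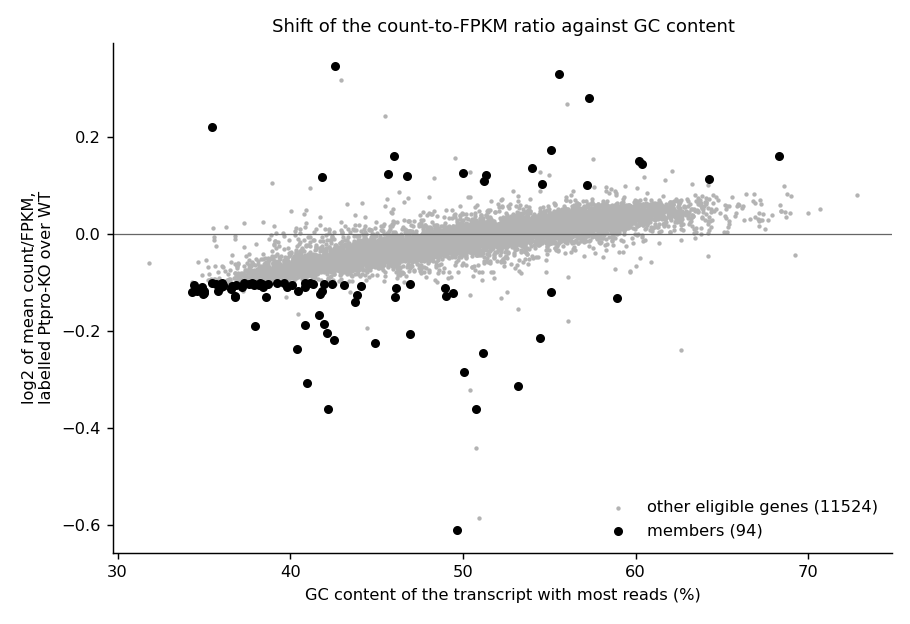
Log2 of the mean count-to-FPKM ratio in libraries labelled Ptpro-KO over those labelled WT (vertical) against the GC content in percent of the transcript with most reads (horizontal), with members in black and other eligible genes in grey. Grey points rise from left to right (Spearman correlation 0.87 over all 11618 genes), many shorter members lie at their lower left end, and the members with the largest shifts lie off the band.

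The relation to GC content differed between libraries. Each gene's log2 ratio was set against its mean over the 6 libraries, and this deviation was fitted against GC content. Because of this centring some slopes must be positive and others negative. A flat slope means only that a library lay near the mean of the 6. Per 10 percentage points of GC the slope was −0.012, −0.035 and −0.032 under WT and 0.047, 0.029 and 0.0031 under Ptpro-KO. The labels did not overlap, but Ptpro-KO replicate 3 was nearly flat and lay closer to WT replicate 1 than to Ptpro-KO replicate 1. In the lowest decile the median deviation was 0.028, 0.033 and 0.042 under WT and −0.045, −0.038 and −0.020 under Ptpro-KO. In the highest decile the labels overlapped, with 0.0027, −0.038 and −0.025 against 0.050, 0.022 and −0.011.

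**Figure D3:**
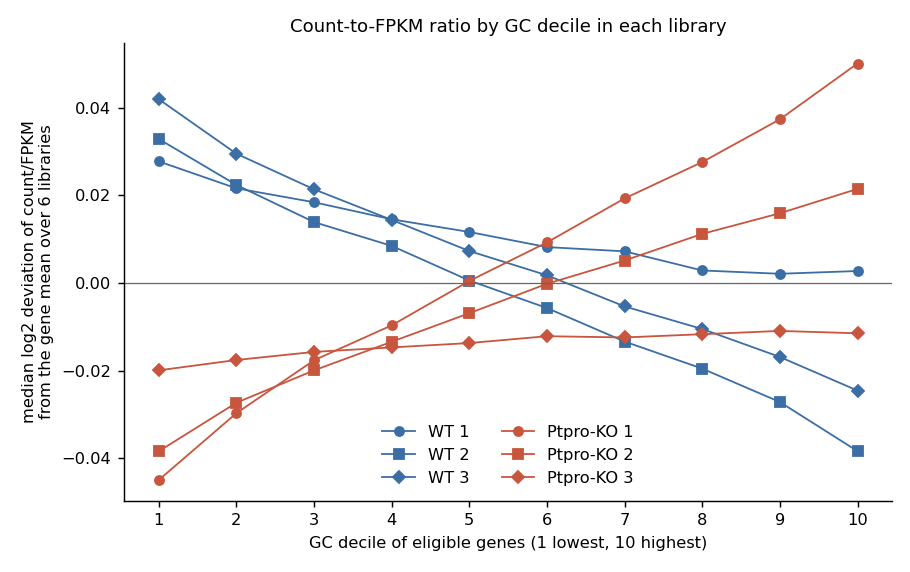
Median log2 deviation of the count-to-FPKM ratio from the mean of each gene over 6 libraries (vertical), by GC decile of eligible genes (horizontal), with 1 line per library (blue, labelled WT; red, labelled Ptpro-KO). Lines of the labels are apart in the low deciles and mixed in the highest, and Ptpro-KO replicate 3 is nearly flat.

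The GC trend of each library was then removed with a smooth curve, an alternative chosen after seeing the data, and the 100 genes were chosen again. Only the 94 members with a sequence could be kept. Of these 41 were kept, 18 of 19 longer and 23 of 75 shorter. Labels then did not overlap in 2806 of 11618 genes (24.2%), 1474 longer and 1332 shorter, and the new list held 54 longer and 46 shorter genes. The median absolute shift of the members with a sequence went from 0.12 to 0.062, and the shift of 0 members changed sign.

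Of the first 20 ranks 17 of the 19 with a sequence were kept, and of ranks 51 to 100 only 7 of 47. Gm14005 had −0.60 after removal, Gm14391 −0.30, Zkscan8 −0.24 and Pnkd 0.25. H13 has 58.9% GC and lies against the trend, and its shift went from −0.13 to −0.17. The 11 shorter members with 1 listed transcript had −0.045 to −0.0038 after removal. Among them Ap3s1 went from −0.11 to −0.045, Seh1l from −0.10 to −0.044, Ube3a from −0.10 to −0.030, Pof1b from −0.11 to −0.015, Jrkl from −0.11 to −0.0090 and Zfp654 from −0.11 to −0.0038. Lor kept 0.10 of 0.16 and Lce1m 0.074 of 0.10.

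The deposited per-sample files give whole reads for each Ensembl transcript, and so a second measure of length, the mean length of the transcripts of a gene weighted by their reads. Across 11394 eligible genes this length and the count-to-FPKM ratio had a Spearman correlation of 0.92 in WT replicate 1, so both order genes by length in much the same way. Their changes between labels were little related, with a Spearman correlation of 0.059 over the same genes. Of the members, 5 were not matched by symbol (2310040G24Rik, A230073K19Rik, Igip, Gm20199 and C230091D08Rik) and 3 had under 20 reads in at least 1 library (C1qtnf5, Gm20594 and B3galt2), which left 92.

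Of these 92 members the read-weighted length moved in the direction of the ratio in 55, in the opposite direction in 26 and not at all in 11, where reads lay on 1 transcript. Over all eligible genes 37.5% moved in the same direction, with 3424 of 11394 unable to move. The lengths of the labels did not overlap in 24 members (26.1%, against a background of 12.9%), in the direction of the ratio in 21. Over all eligible genes they did not overlap in 1472, in the direction of the ratio in 833. Both shares include genes that could not move. The 3 members in the opposite direction were Gm14391, Zfp800 and Adam28. Of the members kept after the GC trend was removed 29 of 40 moved the same way as the ratio, and of those with a sequence that were not kept 25 of 51. In 2 of the 40 and 9 of the 51 the length did not move at all.

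Most of these movements were far smaller than those of the ratio. The median absolute log2 change in read-weighted length was 0.0078 in members and 0.0013 over all eligible genes. A change of 0.10 was reached by 6 of 92 members and by 96 of 11394 eligible genes. Zkscan8 shows how far the 2 measures can part. Its transcript of 8805 bases took 99.7%, 99.8% and 99.9% of its reads under WT and 99.2%, 99.8% and 99.8% in the others, and its read-weighted length changed by −0.0024 while the ratio changed by −0.31. In Gm14391 a transcript of 5536 bases with a retained intron took a mean of 94.0% ± 0.80 and 95.3% ± 0.28 (SD, n = 3) of the reads, an increase in read-weighted length where the ratio shows a decrease. Gm14005, with 33 reads in its shallowest library, had a change in read-weighted length of −0.028.

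**Figure D4:**
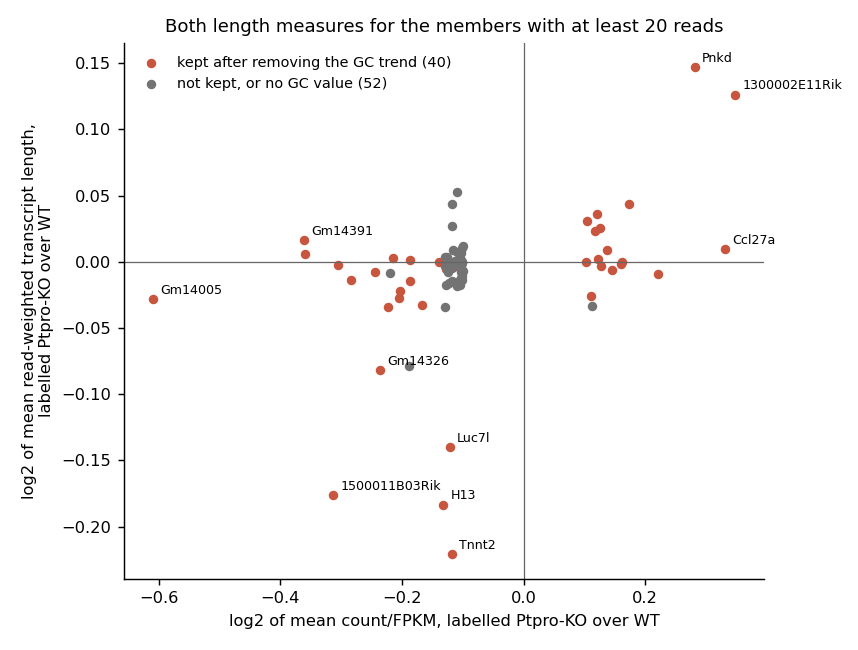
Log2 change in read-weighted transcript length (vertical) against the log2 ratio that chose the members (horizontal), for the 92 members with at least 20 reads in every library, in red where the gene was kept after the GC trend was removed. Most points lie near 0 on the vertical axis, and H13, 1500011B03Rik, Luc7l, Tnnt2, Pnkd and 1300002E11Rik are the 6 members past 0.10.

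H13 and Luc7l were members in which both measures moved to the shorter side and a transcript with a long 3′ untranslated region took a smaller share of reads. H13 encodes signal peptide peptidase, an intramembrane protease of the endoplasmic reticulum, and lies on the plus strand of chr2:152669461-152708670. Its transcript of 5204 bases, with 3946 bases of 3′ untranslated region, took 19.7%, 17.8% and 20.8% of the reads under WT and 13.3%, 13.4% and 13.5% under Ptpro-KO. The groups did not overlap. The read-weighted length of H13 was 2241, 2191 and 2330 bases against 1986, 2017 and 1952, a log2 change of −0.18. The usage test over all genes gave H13 an edgeR adjusted p of 0.131.

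Luc7l encodes a protein related to a yeast component of the U1 small nuclear ribonucleoprotein, which recognises 5′ splice sites. Its transcript of 4934 bases, with 3738 bases of 3′ untranslated region, took 38.7%, 40.2% and 39.7% against 31.0%, 30.03% and 28.5%, and a transcript of 2670 bases with a retained intron took 8.80%, 9.70% and 11.1% against 13.8%, 14.6% and 14.1%. Neither share overlapped between labels. The edgeR adjusted p for transcript usage of Luc7l was 0.0505, just above the threshold of 0.05. The long and the short transcripts of both genes also end in different coding sequence, as the last 60 coding bases show (GENCODE M21, 5′ to 3′, stop codon in capitals).
H13, transcript of 1743 bases: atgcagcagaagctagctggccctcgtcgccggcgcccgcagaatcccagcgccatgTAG
H13, transcript of 5204 bases: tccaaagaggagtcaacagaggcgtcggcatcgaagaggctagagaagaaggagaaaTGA
Luc7l, transcript of 1686 bases: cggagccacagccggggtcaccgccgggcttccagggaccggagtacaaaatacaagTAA
Luc7l, transcript of 4934 bases: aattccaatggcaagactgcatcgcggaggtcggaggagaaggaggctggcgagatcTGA
The transcripts shown thus differ in coding sequence and not only in the length of the 3′ untranslated region. The H13 transcript of 1743 bases took 32.6% ± 2.35 and 32.4% ± 1.06 (SD, n = 3), so its share overlapped between labels, and the Luc7l transcript of 1686 bases took 40.5% ± 2.27 and 41.4% ± 2.87.

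Other members with a shift in both measures moved between a coding and a non-coding or a long and a short transcript. In 1500011B03Rik the coding transcript of 1333 bases took 70.8%, 70.4% and 68.7% of reads under WT and 55.2%, 46.6% and 57.6% under Ptpro-KO, and a processed transcript of 579 bases took the rest. In 1300002E11Rik the long transcript of 3550 bases took 68.4%, 70.5% and 78.5% against 79.4%, 79.6% and 82.5%, on 139 reads in the shallowest library. In Pnkd the short transcript of 740 bases took 44.3%, 34.1% and 38.05% against 28.5%, 33.2% and 28.05%. The labels did not overlap in these 3 genes, though in Pnkd the lowest WT value and the highest Ptpro-KO value were close. The edgeR adjusted p for usage was 0.381, 0.226 and 0.405.

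Tnnt2, which encodes the troponin T of heart muscle, had the largest change in read-weighted length of any member, −0.22, and its labels overlapped. A transcript of 3330 bases with a retained intron took 34.2%, 25.7% and 19.3% of its reads under WT and 11.8%, 11.4% and 28.8% under Ptpro-KO, with replicate 3 of the latter inside the WT range.

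**Figure D5:**
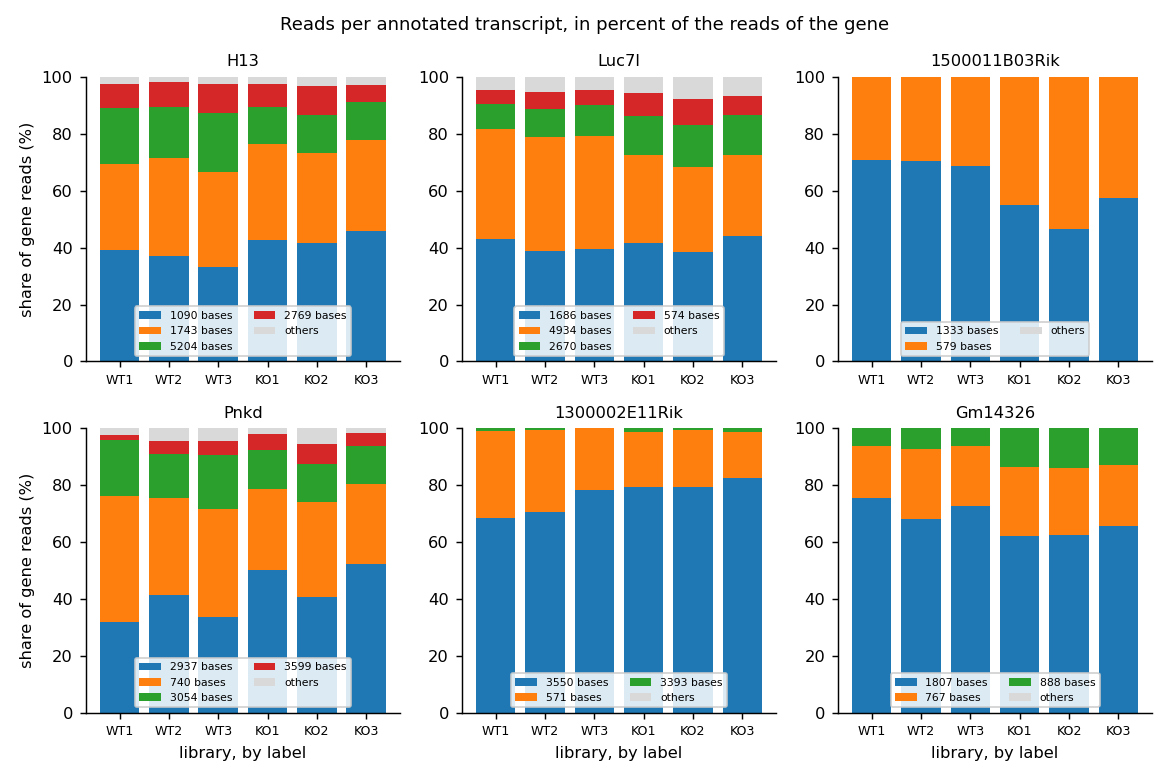
Share of the reads of a gene (percent, bars from 0) on each of its 4 most read transcripts, named by length in bases, with others in grey, in each of 6 libraries for 6 members. The 5204-base transcript of H13 and the 4934-base transcript of Luc7l take smaller shares in the 3 libraries labelled Ptpro-KO, and the 888-base transcript of Gm14326 a larger one.

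Whether reads moved between transcripts of a gene was tested with edgeR over 7025 genes, of which 149 (2.12%) passed at an adjusted p under 0.05. Of 68 members tested 3 passed, and since the test uses the same libraries and labels as the ratios nothing is read from that count. They were Trappc13, Pars2 and Gm14326. In Trappc13, a subunit of the TRAPP complex of vesicle transport, a processed transcript of 1609 bases took 4.03%, 4.66% and 4.63% of reads under WT and 8.98%, 9.40% and 7.37% under Ptpro-KO (edgeR adjusted p = 0.0252 for the gene). In Pars2, the mitochondrial prolyl-tRNA synthetase, the transcript of 3046 bases with a longer 5′ untranslated region took 10.1%, 9.52% and 8.02% against 15.3%, 16.3% and 19.5% (edgeR adjusted p = 0.0311). In Gm14326 a transcript of 888 bases took 6.03%, 7.09% and 6.08% against 13.6%, 13.8% and 12.9% (edgeR adjusted p = 0.0311). In simulated data this test made 29 calls in unchanged genes over 6837 genes, and with limma's test 4 genes and 0 members passed, so single calls are weak. Leaving out any 1 library left 24 to 67 genes and at most 1 member.

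Expression of the members, from reads summed per gene, was tested over 17663 genes, and 725 (4.1%) passed by edgeR. Under the Ptpro-KO label 320 of them were higher (1.81%) and 405 lower (2.29%). Of 93 members tested 3 passed, 0 higher and 3 lower. This is the same contrast as the rule, and nothing is read from the count. The median log2 fold change was 0.041 in members and 0.034 over all genes tested.

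The 3 members that passed include genes of stratified epithelium. Sbsn, which encodes the secreted epidermal protein suprabasin, had 390, 298 and 512 CPM under WT against 131, 96.2 and 98.2 CPM under Ptpro-KO, and fell by 1.88 ± 0.25 (SE) on the log2 scale (edgeR adjusted p = 0.0253). Pof1b, an actin-binding protein of epithelial junctions, was at 267, 269 and 377 against 114, 108 and 153 CPM, and fell by 1.28 ± 0.21 (edgeR adjusted p = 0.0374). Chordc1, a co-chaperone of Hsp90, was at 47.4, 41.1 and 44.4 against 31.1, 26.6 and 29.3 CPM, and fell by 0.61 ± 0.11 (edgeR adjusted p = 0.0434). The groups did not overlap in these genes. The summed squamous markers were lower in the same libraries, as given above, with 7 of 16 called lower, and their part in these values was not tested. Without any 1 library the adjusted p of Sbsn lay between 0.0520 and 0.0941 and that of Chordc1 between 0.0775 and 0.173, and Pof1b still passed only without Ptpro-KO replicate 3.

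Next by p were Mpzl3, a transmembrane protein of skin, at 135, 121 and 133 against 65.3, 52.5 and 86.9 CPM (log2 −0.93, edgeR adjusted p = 0.0600), and Gm14005, at 2.20, 1.43 and 1.17 against 14.8, 13.6 and 3.66 CPM (log2 2.73, edgeR adjusted p = 0.0623). Without Ptpro-KO replicate 3 both passed, at 0.0347 and 0.0285. Bcl2l11, next to Gm14005, was at 11.9, 14.2 and 14.7 against 28.7, 39.2 and 20.4 CPM (log2 1.12, edgeR adjusted p = 0.0711). Labels did not overlap in either gene, and Ptpro-KO replicate 3 was the lowest of its label in both.

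Where the ratio shifted, FPKM and scaled counts gave different fold changes, and members were chosen for large shifts. The share of sign differences over all eligible genes was not computed. For 17 of the 100 members the sign of the fold change in mean FPKM differed from that in the mean scaled count. Nothing is read from this count. The median absolute difference between the 2 log2 values was 0.12, which nearly repeats the shift by which the members were chosen. Gm14391 had a log2 change of 0.046 in FPKM and −0.34 in scaled counts, while the reads of the per-sample files gave 0.36 with edgeR. For 1300002E11Rik the values were −0.18 in FPKM, 0.18 in scaled counts and 0.20 in edgeR, and for Pnkd −0.037, 0.25 and 0.25. In the last 2 genes the scaled counts and the per-sample reads were on one side of 0 and the FPKM on the other. None of these 3 genes passed the edgeR test of expression.

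Regulators of transcript choice were described from lists of known factors. Of 49 splicing regulators tested, 2 were lower by edgeR, Ptbp3 (log2 −0.72, edgeR adjusted p = 0.0402) and Tra2a, and 0 were higher, beside 4.1% called over all genes. Their median log2 was −0.13 against 0.034 over all genes. In the usage test 3 of 36 passed, Hnrnpll, Hnrnpm and Tra2b, beside 2.12% over all genes. The list has 1 member of the 100, Srsf10, a splicing factor of the SR family, with ratios of 84.9, 82.2 and 84.6 against 78.0, 77.6 and 78.6 (log2 −0.10) and a GC content of 43.1%. Its expression had an edgeR adjusted p of 0.482. Among 21 cleavage and polyadenylation factors, 14 factors of nonsense-mediated decay, 19 genes with known epithelial and mesenchymal isoforms and 25 with known muscle isoforms, 0 passed the edgeR test of expression, and none was a member. Of these 14, 8, 18 and 22 could be tested for usage, and 0 passed.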

How the data were processed

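Members and lists were chosen with earlier results of these data known. Per the submitters' processing notes, reads were aligned with Bowtie 0.12.2 to mm10. Each library's deposited file holds a whole read count per Ensembl transcript, its length and its RPKM, which the authors computed from count, length and library total. File names mention removal of ribosomal RNA. For the whole series the authors gave FPKM per gene, and scaled gene counts, a deposited signal that is not whole. Their tool and scaling were not given in the sources used here. Each table had 2 further value columns that were not used. Library names tied table columns to samples through the names of the per-sample files.

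Ratios used both gene tables. Reads were summed over 41253 symbols from 100249 transcripts, of which 97.2% were in GENCODE M21 (GRCm38, the assembly of mm10), and entries with no gene name held 0 reads. Where both gave a length, 88.8% were equal. Genes and transcripts were filtered with filterByExpr (10 counts in 3 libraries, 15 in total), TMM-scaled, then compared by the quasi-likelihood test and diffSpliceDGE of edgeR 4.0.16 in R 4.3.3, with Benjamini-Hochberg adjustment at 0.05. Alternatives used DESeq2 1.42.0 and limma 3.58.1. The GC trend was a lowess curve (statsmodels) of each library's log2 deviation from the gene mean.

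In simulated counts for expression (17390 genes), the test recovered 2 of 100 at 2-fold and 52 of 100 at 4-fold, with 4 false calls. For usage (6837 genes) it recovered 8 of 100 and 62 of 100, with 29 false calls. Named genes were the 12 outermost members on each side, up to 5 per side with the largest change in read-weighted length that separated the labels in the direction of the ratio, up to 5 against it, the 5 with the smallest expression p, the ranks at the edge, Ptpro, and up to 4 genes per list. Trappc13, Tnnt2, Srsf10 and the genes with 1 transcript, and others outside this rule, were picked with their values in view.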

Additional observations from a re-analysis of the deposited data

How the results depend on the processing

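Of the 11974 eligible genes, the 5277 whose ratios separated the labels became 2806 with the GC trend removed and 8300 without the libraries named LB (replicate 1 of each label), where 2 against 2 libraries separate more easily; without 1 library they were 5501 to 7888. Of the 94 members with a sequence, 41 were still among the first 100 with the GC trend removed. Of all members, 66 were with FPKM above 0.1, 62 with FPKM above 5, and 63 to 84 without 1 library (63 without WT replicate 1, 66 without WT replicate 2). The 55 members whose read-weighted length moved with the ratio became 51 to 58 without 1 library. Expression calls (725, members 3) were 3160 and 15 with DESeq2, and 0 to 496 and 0 to 4 without 1 library, with 0 calls by edgeR when replicate 2 or 3 of WT or replicate 2 of Ptpro-KO was left out, where 3369, 3078 and 4363 genes had an unadjusted p under 0.05. Usage calls (149, members 3) were 7 and 0 with no filter on low counts, 4 and 0 with limma, 2 and 0 with the Simes p, and 24 to 67 and 0 to 1 without 1 library.

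With the replicate block the counts were 237 and 1 for expression and 81 and 1 for usage. Same-numbered samples deviated together with correlations of 0.54, 0.080 and −0.24, so the numbers were not taken as pairs. Among single genes 0 log2 ratios or fold changes reversed. The tests have 3 libraries per label, and shares in members with few reads, such as Gm14005 and 1300002E11Rik, carry counting error as well. Reads were also few for 2010204K13Rik, at 0.638 to 1.35 CPM under WT and 1.22 to 1.48 CPM under Ptpro-KO. Ccl27a was at 1.55 to 3.10 and 0.843 to 1.81 CPM. How far depth limits the tests was not tested. The cause of the changes in counts was not tested.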
